A study of Mus musculus with 30 samples.

Results

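The interferon-stimulated genes analysed here were 39 listed genes whose transcripts are known to be raised by interferon, out of 49089 genes counted in AML12 cells, a line of mouse hepatocytes. All 39 were found by symbol through their Ensembl identifiers, and 22 of them had enough reads to be tested, as did 11368 genes in all. The members were chosen by name after results of these data had been seen, among them the measured fall of Ifit3b under insulin in Control cells. Which other values entered the choice is not recorded, so the effect of insulin in Control cells is given below as a description without a test. RNA-seq had been done on 30 libraries in 8 groups: Control cells that received a non-silencing siRNA, FoxK1 KD cells, FoxK2 KD cells and cells with both knockdowns (DKD), at basal or given 100 nM insulin for 6 h. There were 4 replicates per group, but 3 in the insulin groups of Control and DKD cells. All cells carried a transient siRNA given with a lipid reagent and were starved of serum overnight before treatment. The labels give basal samples a treatment time of 0, whereas the protocol describes a mock treatment over the same period as insulin. The study's methods take n in general as animals or independent experiments, but neither they nor the labels say this of the RNA-seq libraries, so p-values may measure only technical spread between these samples.

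Type I interferons are secreted when cells sense viral nucleic acid, and they bind surface receptors that activate the kinases JAK1 and TYK2. A complex that contains STAT2 and IRF9 then binds the interferon-stimulated response element (ISRE) in the promoters of antiviral genes, and a different element, called GAS, serves interferon gamma. The products act against viruses in different ways. IFIT proteins bind viral RNA, ISG15 is attached to proteins like ubiquitin, RIG-I (Ddx58) and MDA5 (Ifih1) sense RNA, and Tap1 takes part in supplying peptides for antigen presentation. Many cells keep a low level of such transcripts without infection.

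The promoters of the members were searched for 3 motifs, since the ISRE is the element through which many such genes are induced. RefSeq promoters of GRCm38.p6, each reaching from 250 bases before to 50 bases after a transcription start, were found for 30 of the 39 members. The ISRE core, searched as GAAANNGAA on both strands, was present in 15 of the 30, against 9.76% of 27025 genes with a promoter in the table. It occurred in 9 of 19 members that were tested and in 6 of 11 that had too few reads, so tested and barely counted members held it in similar shares (47.4% and 54.5%). GAS, searched as TTCNNNGAA, which reads the same on both strands, was found in 7 of the 30 members (23.3%) and 9.55% of all genes, and the forkhead motif GTAAACA in 3 of the 30 and 4.05%. These matches describe letters in a window and are not measured binding sites. Ifit3, Ifit3b, Ifit1 and Isg15 each held 3 ISRE cores, shown in capitals (overlapping ones run together) in the promoters below, which are given because Ifit3 and Ifit3b fell most among the 22 tested members under insulin whereas Ifit1 and Isg15, with as many cores, were hardly counted. The regions are chr19:34583279-34583578 (plus strand) for Ifit3, chr19:34607707-34608006 (plus strand) for Ifit3b, chr19:34640639-34640938 (plus strand) for Ifit1 and chr4:156200769-156201068 (minus strand) for Isg15, all written 5′ to 3′ in the direction of the gene. On the plus strand of the IFIT promoters the core appears as its reverse complement.
Ifit3: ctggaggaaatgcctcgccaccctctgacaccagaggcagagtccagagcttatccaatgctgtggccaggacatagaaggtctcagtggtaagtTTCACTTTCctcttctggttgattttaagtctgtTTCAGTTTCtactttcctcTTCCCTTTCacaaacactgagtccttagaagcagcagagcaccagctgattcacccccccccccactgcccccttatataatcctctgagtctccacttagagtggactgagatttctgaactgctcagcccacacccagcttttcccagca
Ifit3b: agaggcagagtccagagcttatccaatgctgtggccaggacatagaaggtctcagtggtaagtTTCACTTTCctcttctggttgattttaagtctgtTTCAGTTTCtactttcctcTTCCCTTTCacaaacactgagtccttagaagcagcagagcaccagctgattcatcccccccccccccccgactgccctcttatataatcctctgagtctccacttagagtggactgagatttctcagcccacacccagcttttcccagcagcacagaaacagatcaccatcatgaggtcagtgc
Ifit1: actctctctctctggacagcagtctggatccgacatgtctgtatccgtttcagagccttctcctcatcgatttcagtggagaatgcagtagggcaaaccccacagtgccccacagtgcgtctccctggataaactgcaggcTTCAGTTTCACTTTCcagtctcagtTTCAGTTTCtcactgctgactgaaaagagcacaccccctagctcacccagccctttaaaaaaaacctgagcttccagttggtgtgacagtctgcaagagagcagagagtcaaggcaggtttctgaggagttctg
Isg15: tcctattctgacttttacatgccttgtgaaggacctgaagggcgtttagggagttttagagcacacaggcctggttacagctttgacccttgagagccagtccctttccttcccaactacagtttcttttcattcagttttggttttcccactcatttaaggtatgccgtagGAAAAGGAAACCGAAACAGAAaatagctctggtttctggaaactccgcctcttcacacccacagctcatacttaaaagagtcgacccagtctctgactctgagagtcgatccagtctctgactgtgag
The promoters of Ifit3 and Ifit3b were 94.2% identical over 274 aligned columns, with 2 mismatches and 14 gap positions, so their cores lie in nearly the same surroundings. Neither of the 2 windows tabulated for Ifit2 held an ISRE core, which says nothing of other starts of this gene.

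Between 2141460 and 5668270 reads per library were counted on genes. Values are given as CPM, counts scaled to library size after TMM normalization, with the SD over replicates. Basal and insulin libraries did not overlap for 25% (Control), 31.9% (FoxK1 KD), 30% (FoxK2 KD) and 28.7% (DKD) of all genes tested. For FoxK1 KD, FoxK2 KD and DKD against Control, this share was 9.98%, 4.67% and 18.4% at basal. After insulin it was 16%, 7.27% and 17.2%. Knockdown was measurable at basal: Foxk1 was at 36.8 ± 6.43 CPM (FoxK1 KD) and 46.5 ± 3.43 (DKD) against 81.4 ± 10.4 in Control (n = 4 each), and Foxk2 at 47.3 ± 3.46 (FoxK2 KD) and 50.2 ± 5.69 (DKD) against 140.2 ± 8.25. Foxk2 was somewhat lower in basal FoxK1 KD libraries too (117.0 ± 12.1). In insulin libraries the Foxk1 gap was smaller, with 30.9 ± 3.11 CPM (FoxK1 KD) and 34.2 ± 5.78 (DKD) against 53.0 ± 4.46 in Control. Foxk2 was then at 65.7 ± 3.47 (FoxK2 KD) and 64.3 ± 4.61 (DKD) against 162.7 ± 5.66. The libraries held the hepatocyte transcripts Krt8, Krt18, Apob and Hnf4a (at least 89.6 CPM for Hnf4a), but Alb was low (2.50 to 65.2 CPM) and Apoa1 and Fgb did not exceed 3.06 CPM. Krt19 (323 to 753 CPM) and Sox9 (168 to 296 CPM), which also mark cholangiocytes, were high, whereas Epcam, the macrophage marker Adgre1 and the stellate cell markers Lrat and Pdgfrb had 0 reads. Endothelial markers did not exceed 0.55 CPM in sum in any library.

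The members fell into a measured and a barely counted group. The 22 tested members had between 343 reads (Usp18, which removes ISG15 from proteins) and 28439 reads (Lgals3bp, a secreted glycoprotein) over all 30 libraries, and the same number passed the filter in basal or in insulin libraries alone. The other 17 members had 1 to 129 reads each, 1021 together, and no more than 12 in any library. They were Ifit1, Isg15, Irf7, Dhx58, Zbp1, Oas1a, Oasl2, Mx1, Mx2, Rsad2, Rtp4, Ifi44, Ifi27, Xaf1, Gbp3, Psmb8 and Psmb9. Thus several genes used as classic readouts of an interferon response, such as the GTPases Mx1 (15 reads) and Mx2 (44 reads), the synthetase Oas1a (92 reads), the enzyme viperin encoded by Rsad2 (60 reads) and Isg15 (100 reads), were at the edge of detection in all 8 groups. Differences between groups in most of these 17 were not detectable at this depth. With every counted gene kept in the edgeR fit, Rtp4, with 20 reads in basal and 1 in insulin FoxK1 KD libraries, was lower after insulin (adjusted p 0.00645), and Mx2, with 0 reads in basal Control and 6 in basal DKD libraries, was higher in the latter (0.0459). Mx2 also had 6 reads in basal FoxK1 KD and 4 in basal FoxK2 KD libraries, without passing (edgeR adjusted p 0.109 and 0.561).

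**Figure D1:**
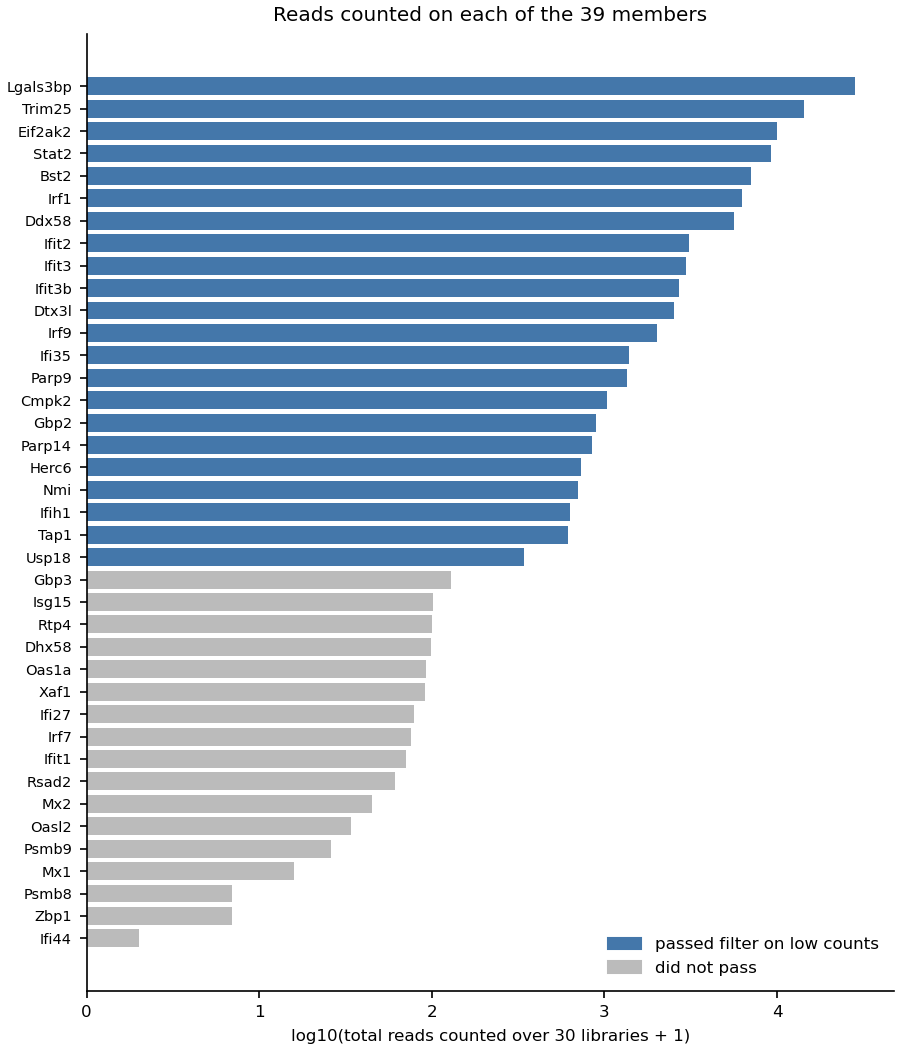
Reads counted on each of the 39 interferon-stimulated genes over all 30 libraries, on a log10 axis after adding 1. Blue bars are the 22 members that passed the filter on low counts and grey bars the 17 that did not, from Gbp3 with 129 reads down to Ifi44 with 1.

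Per kilobase of exon, the tested members spanned a wide range of levels in basal Control cells. RPKM was highest for Bst2 (73.0 ± 42.4, SD, n = 4), which encodes the membrane protein tetherin, and Lgals3bp (68.8 ± 4.42), followed by the ubiquitin ligase Trim25 (23.4 ± 2.82), the RNA-activated kinase Eif2ak2 (20.7 ± 4.71), Ifit3 (20.2 ± 3.02) and Ifit3b (18.3 ± 1.04). Bst2 and Lgals3bp did not differ beyond their spread, and neither did Trim25, Eif2ak2, Ifit3 and Ifit3b, each against the next in order. The transcription factors Stat2 (13.7 ± 0.73) and Irf1 (13.5 ± 1.77) were next. Tap1 (0.84 ± 0.20), the ISG15 ligase Herc6 (0.78 ± 0.16) and Ifih1 (0.73 ± 0.23) were lowest and overlapped.

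After insulin, 3 of the 4 IFIT members, Ifit3b, Ifit3 and Ifit2, were lower in every genotype. Ifit3b was counted at 38.6, 37.5, 37.0 and 33.8 CPM in the basal Control libraries and at 3.43, 5.69 and 3.46 CPM in the insulin-stimulated ones. In FoxK1 KD cells it went from 43.9, 40.3, 53.6 and 44.95 CPM to 7.39, 10.8, 10.2 and 13.4 CPM, and in FoxK2 KD cells from 30.6, 33.6, 32.4 and 25.7 CPM to 4.41, 4.95, 4.85 and 4.41 CPM. DKD libraries held 49.1, 43.3, 36.1 and 38.8 CPM at basal and 8.29, 5.42 and 6.85 CPM after insulin. Every insulin library lay far below every basal library of its genotype. The log2 fold change was -3.13 in Control (standard error 0.19, an 8.75-fold fall). It was -2.13 (0.15) in FoxK1 KD, -2.71 (0.17) in FoxK2 KD and -2.58 (0.17) in DKD cells. In the quasi-likelihood test of edgeR, Benjamini-Hochberg adjusted over all 11368 genes, the adjusted p was 1.7e-12, 5.88e-14 and 3.21e-13 for the knockdown genotypes in this order.

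Ifit3 showed the same fall from a similar starting level. Its CPM was 38.8, 34.5, 39.5 and 28.0 in basal Control libraries and 5.54, 6.95 and 5.34 after insulin. FoxK1 KD libraries were at 51.4, 44.6, 59.99 and 53.0 CPM and then 12.9, 17.6, 14.0 and 15.6 CPM, FoxK2 KD libraries at 33.6, 31.1, 44.7 and 33.4 CPM and then 4.63, 4.95, 7.58 and 5.98 CPM, and DKD libraries at 46.2, 40.7, 42.6 and 38.0 CPM and then 11.2, 8.51 and 8.40 CPM. Again no insulin library reached any basal library of its genotype, and the highest insulin values were in FoxK1 KD cells. The log2 fold change was -2.55 (standard error 0.19) in Control. With both arms of a knockdown compared, it was -1.80 (0.15, edgeR adjusted p 3.59e-11) for FoxK1 KD, -2.65 (0.17, 7.7e-14) for FoxK2 KD and -2.14 (0.17, 2.83e-11) for DKD.

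Ifit2 fell less. Control libraries held 31.5, 41.8, 37.2 and 31.6 CPM at basal and 19.2, 12.6 and 14.8 CPM after insulin, FoxK1 KD libraries 38.7, 37.0, 47.8 and 41.2 and then 21.4, 20.9, 15.7 and 21.5 CPM. FoxK2 KD libraries held 38.3, 39.3, 35.2 and 36.5 CPM and then 19.2, 14.0, 17.9 and 14.5 CPM, and DKD libraries 31.9, 33.5, 32.4 and 30.8 CPM and then 16.8, 18.2 and 19.9 CPM. The libraries of the 2 arms did not overlap in any genotype. The log2 fold change was -1.17 (0.14) in Control, -1.05 (0.13, edgeR adjusted p 1.97e-07) in FoxK1 KD, -1.17 (0.13, 1.44e-08) in FoxK2 KD and -0.81 (0.14, 0.000118) in DKD cells. Ifit1, the fourth IFIT member, had 42 reads over all basal and 28 over all insulin libraries (0.67 and 0.61 CPM pooled), too few for a comparison. Leaving out any single library left the IFIT calls in the 3 knockdown genotypes in place. In these bulk libraries, fewer cells that express a gene and less RNA per cell cannot be told apart.

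**Figure D2:**
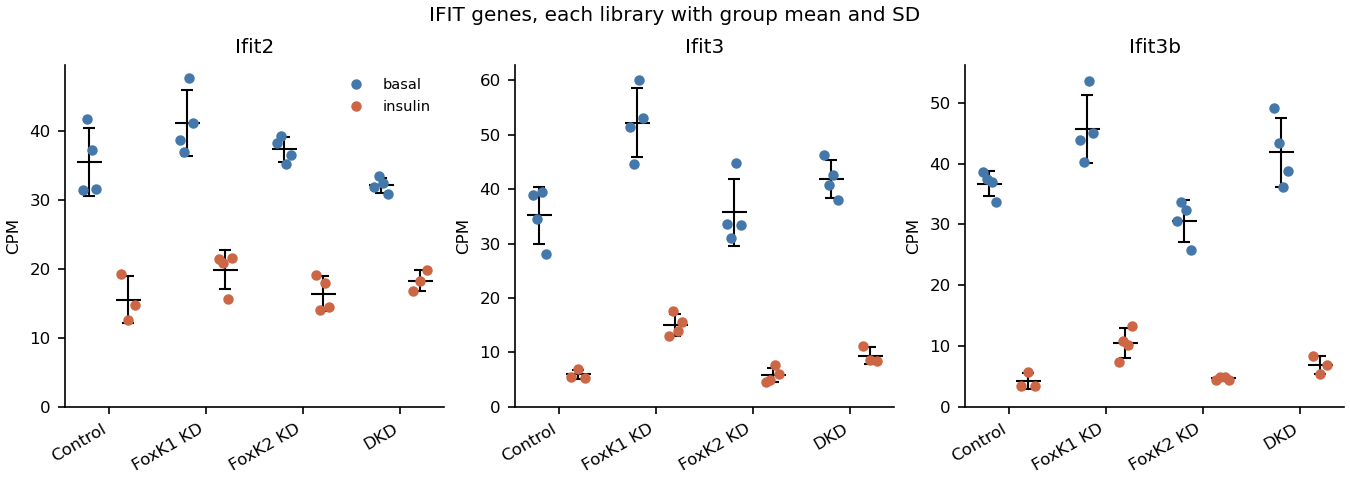
CPM of Ifit2, Ifit3 and Ifit3b in each library (points), by genotype, at basal (blue) and after insulin (red), with the group mean and SD as bars. In all 4 genotypes the insulin libraries lie below the basal ones, and after insulin the FoxK1 KD libraries hold the highest Ifit3 values (12.9 to 17.6 CPM).

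These 3 genes are neighbours on the plus strand of chromosome 19 (GRCm38, GENCODE M21), with Ifit2 at chr19:34550694-34576419, Ifit3 at chr19:34583531-34588731 and Ifit3b at chr19:34607970-34613401. Ifit3 and Ifit3b are near copies, so their values are not independent: their longest transcripts were 97.8% identical over 1700 aligned columns, and 51.2% of the 50-base stretches of Ifit3 were also in Ifit3b. How reads that match both were counted is not given, and their split between the 2 genes is uncertain. No 50-base stretch of Ifit2 was in Ifit3, Ifit3b or Ifit1. The window of 500 kb on either side of Ifit3, chosen after the values were seen, held 24 genes, of which 10 were tested. The nearest tested gene before Ifit2, Lipa (lysosomal acid lipase), was at -0.54 (0.09) in Control, -0.56 (0.08, edgeR adjusted p 1.66e-06) in FoxK1 KD, -0.32 (0.08, 0.00234) in FoxK2 KD and -0.13 (0.08, 0.331) in DKD cells. The nearest beyond Ifit3b, the transporter gene Slc16a12, was at -0.06 in Control, -0.10 (adjusted p 0.488) in FoxK1 KD and 0.10 (0.5) in FoxK2 KD, and rose by 0.39 (0.0165) in DKD cells. Ifit1bl1, which lies between Ifit3 and Ifit3b on the opposite strand, had 46 reads, 38 of them in basal libraries.

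**Figure D3:**
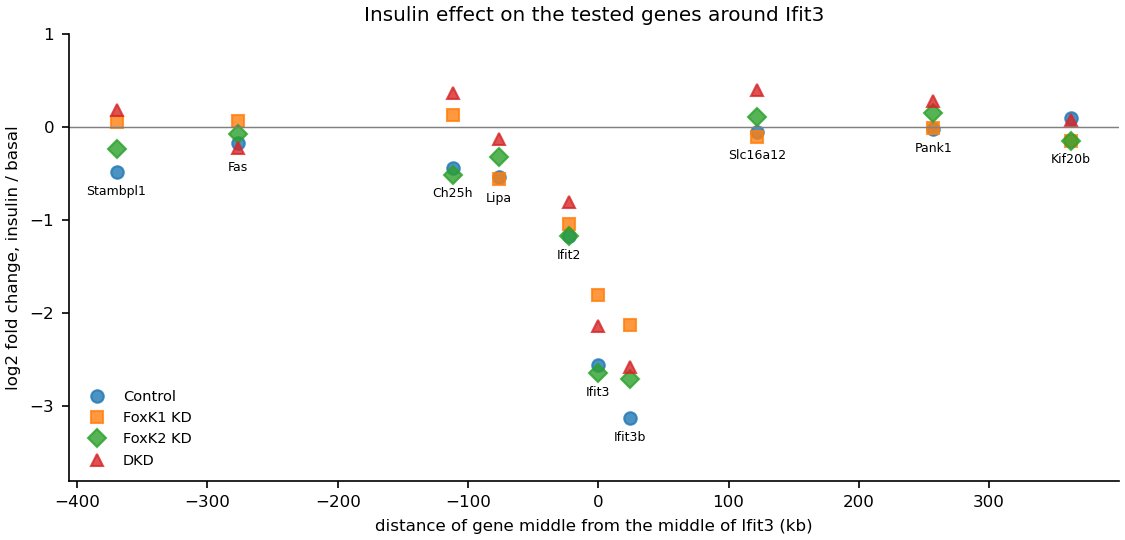
Log2 fold change of insulin over basal for the 10 tested genes around Ifit3, against the distance of each gene's middle from the middle of Ifit3 in kb, with 1 symbol per genotype. Ifit2, Ifit3 and Ifit3b lie between -0.81 and -3.13, and the 7 other genes between -0.56 and 0.39.

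Other transcripts also differed between the arms. The macrophage and leukocyte markers (Ptprc, Adgre1, Csf1r, Cd68, Lyz2 and Clec4f) summed to 8.22 to 12.9 CPM in basal and 4.09 to 6.59 in insulin Control libraries, 17.9 to 22.1 and 10.5 to 13.7 in FoxK1 KD, 11.1 to 13.4 and 4.09 to 6.61 in FoxK2 KD, and 15.7 to 18.2 and 6.63 to 9.51 in DKD libraries. These sums moved with the IFIT genes. Csf1r, the receptor of a macrophage growth factor, gave 1045 of the reads, whereas Adgre1 had 0, Clec4f 1 and Lyz2 6 reads over all libraries. The part of this in the IFIT result was not tested. In addition, Rps2-ps10, Gm13668 and Gm42939 summed to at most 0.99 CPM in the basal Control, FoxK1 KD and FoxK2 KD libraries but to 10.1 to 29.4 CPM in the insulin libraries, so that these basal libraries stand apart from the rest. Basal DKD libraries held 11.8 to 28.0 CPM of them. Their part in the insulin results was not tested.

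Beyond the IFIT genes, the members that responded to insulin went both ways. In Control cells 4 of the 22 tested members were lower and 1 was higher at an FDR below 0.05, where 13.1% and 12.4% of all genes tested were, but this comparison entered the choice of members and nothing is read from its count. In FoxK1 KD cells 6 were lower and 2 higher (15.4% and 16.2% of all genes), in FoxK2 KD cells 6 and 2 (13.7% and 14.4%), and in DKD cells 3 and 0 (7.99% and 8.31%). The median log2 fold change of the 22 members was -0.11 in Control, -0.07 in FoxK1 KD, -0.15 in FoxK2 KD and -0.16 in DKD cells, against -0.01, 0.01, 0.01 and 0.00 for all genes. Apart from the IFIT genes, 1, 3, 3 and 0 of the other 19 members were lower. Nothing particular to the members is read from these counts.

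Among these was Gbp2, a guanylate-binding GTPase. It was counted at 8.93 to 10.2 CPM in the 4 basal Control libraries and 5.801, 3.79 and 6.92 after insulin, and at 8.37, 7.92, 9.41 and 10.7 CPM in FoxK1 KD libraries and 4.80, 4.48, 5.50 and 6.31 after insulin. The arms did not overlap in either genotype, which also held for 25% (Control) and 31.9% (FoxK1 KD) of all genes tested. The log2 fold change was -0.81 (standard error 0.23) in Control and -0.79 (0.23, edgeR adjusted p 0.00861) in FoxK1 KD cells. In FoxK2 KD (-0.48, 0.066) and DKD cells (-0.57, 0.076) it did not pass, and 1 library decided this: without insulin replicate 2 or basal replicate 4 in FoxK2 KD, or insulin replicate 3 or basal replicate 4 in DKD, it passed, with adjusted p down to 0.036 and 0.015.

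Trim25 and Parp14 fell after insulin in FoxK1 KD and in FoxK2 KD cells, and Dtx3l fell in FoxK2 KD cells. Trim25, which modifies RIG-I, ranged from 128 to 151 CPM in basal and 97.8 to 130 CPM in insulin FoxK1 KD libraries, and from 138 to 166 and 112 to 137 CPM in FoxK2 KD libraries. Its log2 fold change was -0.32 (standard error 0.09, edgeR adjusted p 0.00823) and -0.27 (0.09, 0.0202), a small difference. Parp14, a mono-ADP-ribosyltransferase, went from a mean of 8.998 ± 2.14 CPM (SD, n = 4) to 4.71 ± 2.19 in FoxK1 KD cells (-0.90, standard error 0.30, adjusted p 0.0187) and from 10.4 ± 1.78 to 6.42 ± 1.88 in FoxK2 KD cells (-0.67, 0.25, 0.0432). Dtx3l, which forms a ligase with Parp9, was at 32.7, 27.3, 27.7 and 24.4 CPM in basal and 20.7, 22.6, 18.2 and 22.1 CPM in insulin FoxK2 KD libraries (-0.41, 0.13, 0.0123), and at 19.9, 23.1, 25.6 and 26.2 and then 18.5, 18.3, 18.2 and 20.4 CPM in FoxK1 KD libraries (-0.33, 0.14, 0.0663). Parp9 itself and the ligase gene Herc6 did not pass in any genotype. Single libraries decided several of these calls: in FoxK2 KD, Trim25 lost its call without basal replicate 1 or 3 or insulin replicate 3 (adjusted p up to 0.0859), Dtx3l without insulin replicate 3 (0.0503) and Parp14 without basal replicate 1 or 3 or insulin replicate 1, 3 or 4 (up to 0.159). In FoxK1 KD, Parp14 lost its call without basal replicate 4 or insulin replicate 3 (up to 0.0855), and Dtx3l passed without basal replicate 1 (0.0296). Dtx3l and Parp9 share 458 exon bases on opposite strands, and whether strand was used in counting is not given.

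The 2 members that rose in FoxK1 KD and in FoxK2 KD cells were Cmpk2 and Lgals3bp. Cmpk2, a mitochondrial nucleotide kinase whose gene is induced by interferon, was at 9.96, 4.29, 4.47 and 7.76 CPM in basal and 12.2, 7.47, 11.4 and 13.7 CPM in insulin FoxK1 KD libraries, and at 6.79, 6.35, 7.56 and 5.28 and then 8.60, 14.6, 10.3 and 14.2 CPM in FoxK2 KD libraries. The log2 fold change was 0.73 (standard error 0.28, edgeR adjusted p 0.0419) with overlapping libraries in FoxK1 KD and 0.86 (0.26, 0.0117) without overlap in FoxK2 KD cells. In Control it was 0.47 (0.27), and in DKD cells 0.69 (0.27, 0.0722). Lgals3bp rose by 0.31 (0.07, 0.00123) in FoxK1 KD and 0.23 (0.07, 0.0143) in FoxK2 KD cells, was at 0.28 (0.08) in Control and 0.04 (0.08, 0.781) in DKD cells. These calls also leaned on single libraries. Cmpk2 lost its call in FoxK1 KD without basal replicate 2 or 3 or insulin replicate 1, 3 or 4 (adjusted p up to 0.153) and in FoxK2 KD without insulin replicate 2 (0.0514), and Lgals3bp in FoxK2 KD without basal replicate 4 or insulin replicate 1 (up to 0.065). After removal of a trend with GC content and length, an alternative added after seeing the data, Lgals3bp no longer passed in FoxK1 KD (0.10, 0.334) or FoxK2 KD (0.11, 0.27).

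With all libraries in the fit, the sensors and transcription factors did not pass in any genotype. Ddx58 (RIG-I) ranged from 48.0 to 60.01 CPM in basal and from 48.0 to 57.5 CPM in insulin Control libraries, and from 45.5 to 64.8 CPM over both arms of FoxK1 KD cells. Stat2 was at 75.4, 81.3, 83.4 and 85.5 CPM in basal and 65.1, 114 and 101 CPM in insulin Control libraries, so the arms overlapped. Irf9, its partner, was lower on average after insulin, with -0.37 (standard error 0.17) in Control and -0.37 (0.15, edgeR adjusted p 0.072) in FoxK2 KD cells. Without basal replicate 1 or insulin replicate 2 it passed in FoxK2 KD (adjusted p down to 0.023), as it did after removal of a trend with GC content and length (0.0379), under which Ifih1 passed in FoxK1 KD cells too (0.66, 0.041). Irf1, an activator of antiviral genes, was at 46.4 to 53.9 CPM in basal and 48.7 to 68.0 CPM in insulin FoxK1 KD libraries (0.26, 0.11, 0.0586), and passed without insulin replicate 3 (0.0133). Eif2ak2 in DKD cells was at 76.1, 72.7, 60.6 and 82.9 CPM and then 89.3, 90.9 and 102 CPM, without overlap (0.35, 0.14, 0.0779), and passed when only the groups compared were fitted (0.0144) or every counted gene was kept. Ifi35 in FoxK2 KD cells was at 8.64, 10.6, 10.4 and 9.89 CPM in basal and 15.4, 15.7, 13.0 and 14.2 CPM in insulin libraries. These did not overlap, as for 30% of all genes tested in this genotype. It passed under some alternatives, with an edgeR adjusted p down to 0.00634. Tap1 in FoxK2 KD cells passed only without basal replicate 2 (adjusted p 0.0348).

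At basal, some members were called in each knockdown. In FoxK1 KD cells 1 of the 22 tested members passed, against 8.09% of all genes tested, in FoxK2 KD cells 1 against 0.378%, and in DKD cells 4 against 21.1%. Nothing particular to the members is read from these counts. The member in FoxK1 KD cells was Ifit3, whose 4 libraries (44.6 to 59.99 CPM) were all above those of Control (28.0 to 39.5 CPM), by 0.59 on the log2 scale (standard error 0.12, edgeR adjusted p 0.00242). When only the groups compared were fitted, the adjusted p was 0.0763. Ifit3b was above Control in all 4 libraries as well but did not pass (0.33, 0.12, 0.0758), and Ifit2 overlapped (0.22, 0.11, 0.238). In FoxK2 KD cells Ifit3b was at -0.26 (0.12, 0.405). The basal Control libraries also belong to the insulin comparison that entered the choice of members, so these IFIT differences are given as a description.

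Lgals3bp was higher than in Control in FoxK2 KD and DKD cells. It was counted at 189.7, 195, 185 and 214 CPM in basal Control, 247, 268, 248 and 236 CPM in FoxK2 KD and 341, 318, 348 and 296 CPM in DKD libraries. FoxK1 KD libraries held 233, 225, 210 and 213 CPM and overlapped Control, whereas the other groups did not. Against Control, the log2 difference was 0.35 (standard error 0.07, edgeR adjusted p 0.0213) in FoxK2 KD and 0.73 (0.07, 8.14e-09) in DKD cells, and 0.17 (0.07, 0.141) in FoxK1 KD cells. The FoxK2 KD call was lost without basal FoxK2 KD replicate 2 or 3 (adjusted p up to 0.0908), and with only the groups compared (0.507), while its value stayed between 0.31 and 0.40 when single libraries were left out. The DKD call did not depend on a single library.

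In DKD cells 3 further members passed. Beside these differences, Rps2-ps10, Gm13668 and Gm42939 summed to at most 0.28 CPM in basal Control and to 11.8 to 28.0 CPM in basal DKD libraries, and their part in the results for Lgals3bp and these members was not tested. Tap1 was at 5.95, 4.001, 4.96 and 3.39 CPM in Control and 8.61, 7.27, 8.79 and 8.73 CPM in DKD libraries, without overlap, a log2 difference of 0.89 (standard error 0.22, edgeR adjusted p 0.00366). Eif2ak2, whose kinase product halts translation in response to double-stranded RNA, was the member that fell: it was at 83.0 to 139.8 CPM in Control and 76.1, 72.7, 60.6 and 82.9 CPM in DKD libraries (-0.51, 0.13, 0.00409). All DKD libraries were below all Control libraries, the nearest ones only just. Irf1 was at 51.0, 45.5, 55.3 and 62.1 CPM and 63.8, 74.2, 58.3 and 65.2 CPM, with overlap (0.29, 0.10, 0.0392), and lost its call without basal Control replicate 1, 2 or 3 or DKD replicate 1, 2 or 4 (adjusted p up to 0.19). Bst2 did not pass (0.45, 0.20, 0.103), and 1 library decided this: the basal Control libraries held 123, 45.01, 48.6 and 46.6 CPM and the DKD libraries 104, 73.0, 106 and 75.5 CPM, and without Control replicate 1 the difference was 0.92 with an adjusted p of 6.16e-06.

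**Figure D4:**
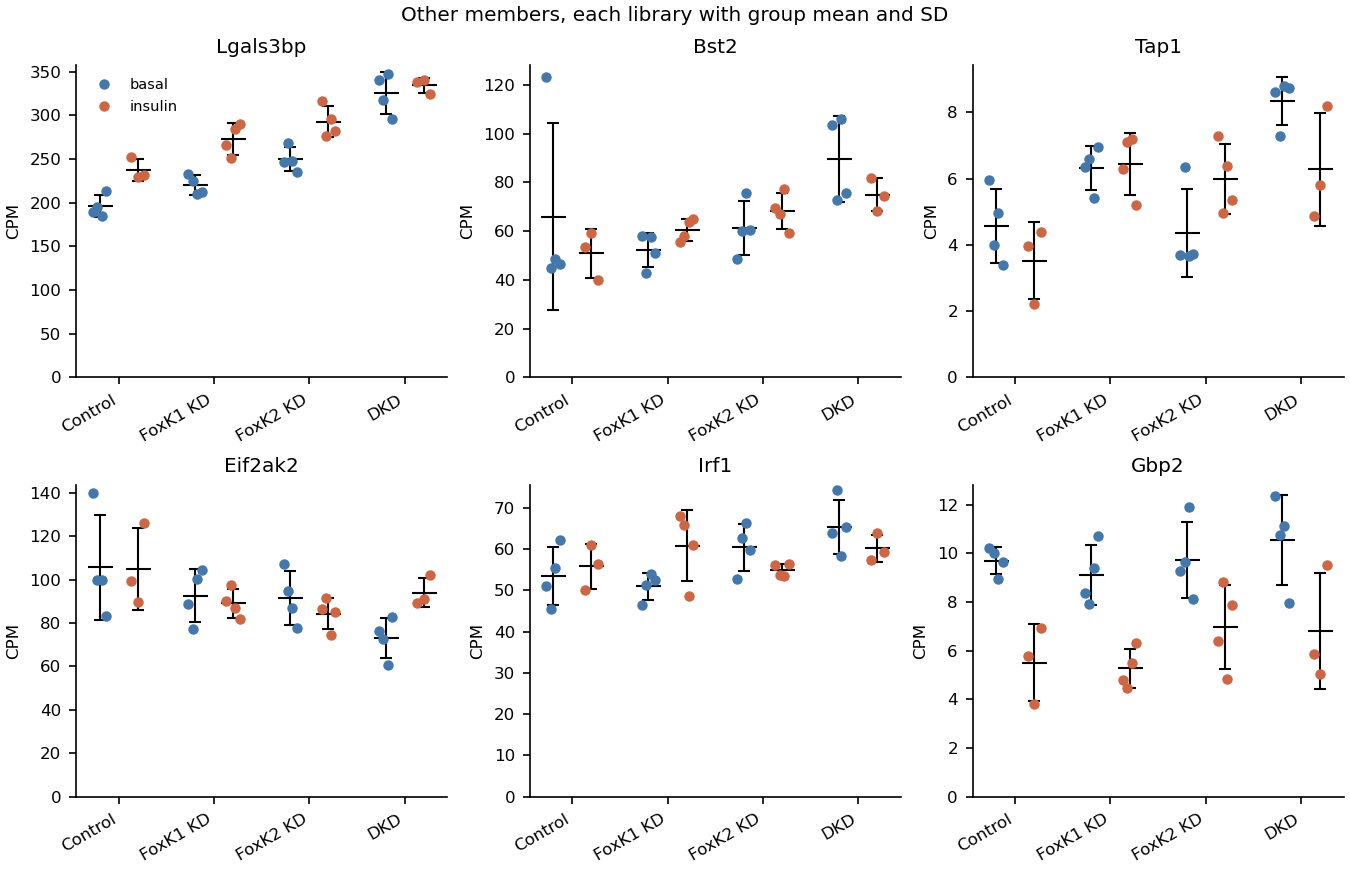
CPM of 6 members in each library (points), by genotype, at basal (blue) and after insulin (red), with the group mean and SD as bars, on axes that start at 0. Lgals3bp rises from Control (185 to 214 CPM at basal) to DKD (296 to 348 CPM), and a single basal Control library of Bst2 stands at 123 CPM.

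After insulin, fewer genes passed between the knockdowns and Control than at basal. The median standard error over the members was 0.23 to 0.24 in these comparisons, against 0.16 at basal. Fewer calls therefore need not mean smaller differences. In FoxK1 KD cells IFIT genes were among those that passed. There, 2 members passed against 3.59% of all genes: Ifit3, with 12.9 to 17.6 CPM in FoxK1 KD and 5.34 to 6.95 CPM in Control libraries, by 1.34 (standard error 0.22), and Ifit3b, with 7.39 to 13.4 and 3.43 to 5.69 CPM, by 1.32 (0.24). These are differences of 2.53 and 2.50-fold without overlap, but they reuse the insulin Control libraries whose low Ifit3b values were known when the members were chosen, and Ifit3 is its near copy, so they are given as a description. Ifit2 did not pass (0.35, 0.16, 0.256). In FoxK2 KD cells 0 members passed against 0.0264% of all genes in the edgeR test, and DESeq2 and limma-voom called 0 as well. An unadjusted edgeR p below 0.05 was found for 4 of the 22 members, against 685 of all 11368 genes tested. That count is not read as a result about the members. In DKD cells 1 member passed against 1.21%, namely Lgals3bp, at 338, 340.5 and 324 CPM against 252, 229 and 232 CPM in Control (0.49, 0.08, 0.000571). Against the same Control libraries, Ifit3 (0.67, standard error 0.24) and Ifit3b (0.75, 0.26) were higher on average in DKD cells without passing. Bst2 did not pass either, at 68.5 to 82.0 CPM in DKD and 39.9 to 59.4 CPM in Control libraries, without overlap. It passed under 1 alternative fit (edgeR adjusted p 0.00631). Tap1, at 2.21 to 4.40 CPM in Control, was above it in all libraries of FoxK1 KD (5.20 to 7.20 CPM), FoxK2 KD (4.95 to 7.28 CPM) and DKD cells (4.88 to 8.18 CPM), by 0.85, 0.76 and 0.84 with adjusted p of 0.0891, 0.645 and 0.156, and these 3 comparisons share the Control libraries. Of all genes tested, 16%, 7.27% and 17.2% were without overlap in these comparisons.

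Whether the insulin effect itself differed between genotypes was tested as the interaction of genotype and insulin. The edgeR test called 0 members for FoxK1 KD, FoxK2 KD and DKD cells, against 0, 0 and 1.54% of all genes, and DESeq2 and limma-voom also called 0. At an unadjusted p below 0.05 there were 2, 1 and 1 of the 22 members, against 1519, 625 and 1661 of all 11368 genes tested. These counts are not read as a result about the members. The 2 in FoxK1 KD cells were Ifit3b and Ifit3, whose fall was smaller than in Control by 0.998 (standard error 0.27, adjusted p 0.161) and 0.75 (0.26, adjusted p 0.226) on the log2 scale in the edgeR test. The Control effect subtracted here entered the choice of Ifit3b, so the size of this difference is a description, and a smaller fall in FoxK1 KD cells was not shown at an FDR below 0.05. The median standard error of this difference over the members was 0.28, against 0.19 for the insulin effect in Control, so that only larger differences could be resolved.

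**Figure D5:**
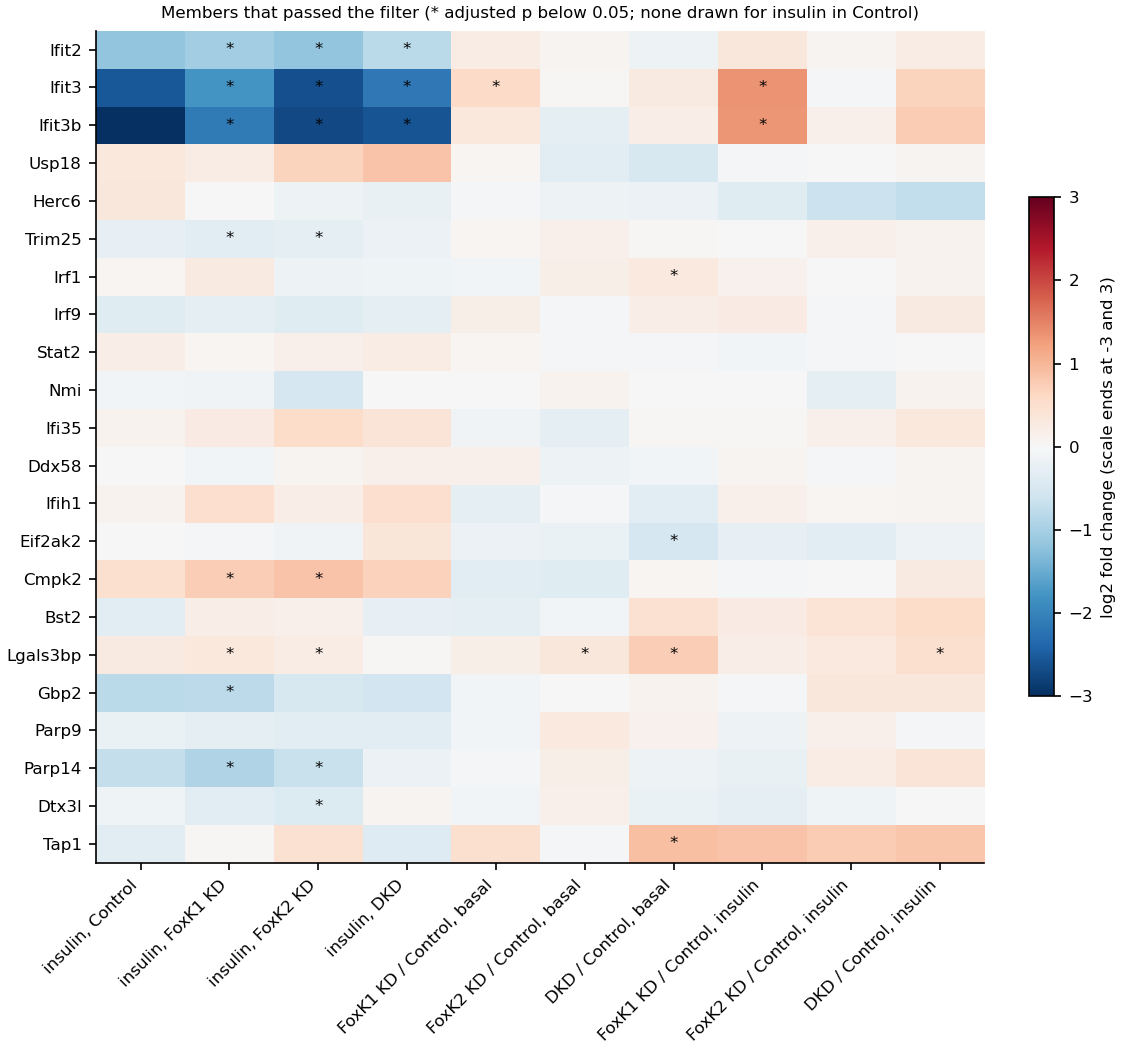
Log2 fold changes of the 22 tested members (rows, by role) in the 4 insulin and 6 knockdown comparisons (columns), blue for lower and red for higher, with the colour scale ending at -3 and 3. Stars mark an adjusted p below 0.05, and none is drawn for insulin in Control. The darkest cells are Ifit3 and Ifit3b under insulin, and most other cells are pale.

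Averaged over the 22 tested members, the level relative to basal Control (mean of log2-CPM) lay between -0.02 and 0.07 in the other basal groups. After insulin the Control libraries were at -0.36 ± 0.10 (SD, n = 3), those of FoxK1 KD at -0.22 ± 0.08 (n = 4), those of FoxK2 KD at -0.31 ± 0.06 (n = 4) and those of DKD at -0.16 ± 0.03 (n = 3). The IFIT genes carried this shift. The mean of Ifit2, Ifit3 and Ifit3b was at -2.21, -1.27, -2.15 and -1.71, whereas the mean of the other 19 members was at -0.07 ± 0.12, -0.05 ± 0.07, -0.02 ± 0.08 and 0.09 ± 0.03, where the basal Control libraries had an SD of 0.12. These averages describe the chosen members and were not tested.

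The surrounding pathway was examined with lists of genes made with results of these data in view. Genes were named from the 2 in each list with the largest change among those called for insulin in a knockdown genotype. Their p-values come from the comparisons that picked them and are not independent evidence. Ifnb1, Ifnar1, Ifnar2 and Irf3 were to be named in any case. Of 10 interferon ligand genes none had enough reads to be tested, and Ifnb1, which encodes interferon beta, had 0 reads. All 6 receptor genes were tested, and 3, 2, 2 and 1 of them were lower after insulin in Control cells, the FoxK1 KD, the FoxK2 KD and the DKD, in this order, where 13.1%, 15.4%, 13.7% and 7.99% of all genes were, and none was higher. Here and in the lists that follow, counts for insulin in Control cells are a description. Ifngr2, a chain of the interferon gamma receptor, was at -0.44 (standard error 0.13) in Control, -0.61 (0.13, edgeR adjusted p 0.000376) in FoxK1 KD, -0.59 (0.12, 0.000317) in FoxK2 KD and -0.36 (0.13, 0.0597) in DKD cells. Ifnar1, a chain of the type I receptor, did not pass in any of them (-0.11 to -0.21), and Ifnar2, the other chain, passed in DKD cells (-0.58, 0.19, 0.0346). Among 5 JAK-STAT genes, Jak2 fell in FoxK1 KD (-0.58, 0.09, 6.85e-06) and FoxK2 KD cells (-0.38, 0.09, 0.00108).

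Of 62 further interferon-stimulated genes, 38 were tested, and they too went both ways. After insulin 4 were higher and 4 lower in Control (12.4% and 13.1% of all genes), 4 and 6 in FoxK1 KD (16.2% and 15.4%), 4 and 5 in FoxK2 KD (14.4% and 13.7%), and 1 and 5 in DKD cells (8.31% and 7.99%). These background shares hold for the counts after insulin in the lists below as well. Trim34a, a tripartite motif gene with 272 reads in all, was at -1.57 (standard error 0.44) in Control and fell by 1.58 (0.41, edgeR adjusted p 0.00361) in FoxK2 KD cells. The chemokine gene Cxcl11 fell by 0.98 in both FoxK2 KD (0.31, 0.0155) and DKD cells (0.30, 0.0245). In basal DKD cells 8 of the 38 were higher and 2 lower than in Control, where 21.1% of all genes passed in either direction. Of 8 tested negative regulators, 1, 3, 1 and 1 were lower after insulin, among them Irf2 in FoxK1 KD cells (-0.62, 0.11, 8.21e-05), a repressor of interferon-responsive promoters. Of 9 tested adaptors and kinases of nucleic acid sensing, 2, 2, 3 and 0 were higher and 0, 1, 0 and 0 lower. Among the higher ones was Irf3, which switches on interferon genes, in FoxK1 KD (0.47, 0.12, 0.0034) and FoxK2 KD cells (0.34, 0.12, 0.0294). Of 10 tested genes of the MHC class I pathway, 2, 0, 2 and 0 were lower and 1, 0, 0 and 0 higher, and B2m, the light chain, was at -0.35 (0.12, 0.0342) in FoxK2 KD cells. Among 10 tested NF-kB targets, 4, 2, 2 and 3 were lower and 0, 1, 0 and 1 higher. Lcn2, which encodes an iron-trafficking protein, rose in FoxK1 KD cells (0.75, 0.23, edgeR adjusted p 0.0122), and the chemokine gene Ccl2 was at -0.63 (0.11, 6.25e-05) in FoxK1 KD, -0.98 (0.11, 5.77e-08) in FoxK2 KD and 0.17 (0.12, 0.391) in DKD cells. Against Control, Ccl2 in DKD cells was already at -0.99 at basal (0.11, edgeR adjusted p 1.96e-07) and was at -0.09 after insulin (0.13, 0.835).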

How the data were processed

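Poly(A) RNA of 30 AML12 libraries, prepared with a NEBNext kit, was sequenced on an Illumina HiSeq instrument. The authors deposited raw counts of reads per Ensembl gene for each sample. The submitters' processing notes name CASAVA 1.8, STAR 2.4.2a, featureCounts and GRCm38.p4; the annotation, the strand setting and the treatment of reads with several matches are not given in the sources used here. Symbols, coordinates and lengths were taken from GENCODE M21.

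Genes passing filterByExpr (11368) were TMM-normalized and fitted together over all 8 groups by edgeR 4.0.16 (glmQLFit, glmQLFTest; R 4.3.3), with Benjamini-Hochberg adjustment and a threshold of 0.05. Standard errors were the absolute log2 fold change over the square root of F. RPKM used union exon length. Alternatives used DESeq2 1.42.0 and limma 3.58.1. The fit was tested on simulated counts. The members and gene lists were chosen with earlier results of these data known, and Ifit3b and the window around Ifit3 after their values were seen. Values per library were given for the 2 most abundant tested members of each role group, and for members with a called basal or interaction effect. Of the 22 tested members, 11 share exon bases with another gene, none over 20%.

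Same-numbered replicates were not stated to share a culture or day, and their deviations from group means did not go together (mean r -0.01 over 99 pairs), so samples were taken as unpaired. The most alike pair within a group still differed by more than counting noise (a chi-square of 1.71 per degree of freedom, the lowest among 42 pairs). Promoters were RefSeq's for GRCm38.p6. A result for 1 gene of the pathway is not reported here.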

Additional observations from a re-analysis of the deposited data

Results flagged for a closer look

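In 6 of 96 groups of 4 libraries examined, 1 library lay far from the others by Dixon's test, a share near the 1 in 20 that chance gives. Bst2 in basal Control replicate 1 was at 123 CPM, against 45.01 to 48.6 CPM in the other libraries, and this decided its comparison with DKD cells. Ifit2 in insulin FoxK1 KD replicate 3 was at 15.7 CPM, against 20.9 to 21.5 CPM. Herc6 in basal FoxK2 KD replicate 1 was at 10.5 CPM, against 5.19 to 5.72 CPM. Dtx3l in insulin FoxK1 KD replicate 4 was at 20.4 CPM, against 18.2 to 18.5 CPM. Tap1 in basal FoxK2 KD replicate 2 was at 6.35 CPM, against 3.67 to 3.74 CPM, and in basal DKD replicate 2 at 7.27 CPM, against 8.61 to 8.79 CPM.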

How the results depend on the processing

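No member changed sign while called under any alternative, and DESeq2, RLE size factors in edgeR and limma-voom moved 0, 0 and 1 of 286 results for single members across the threshold. An FDR below 0.25 instead of 0.05 called 3 higher and 7 lower members for insulin in Control, 4 higher in FoxK1 KD, 5 higher and 10 lower in FoxK2 KD, and 5 higher and 7 lower in DKD cells, 5, 1 and 6 higher for the 3 knockdowns at basal, 4, 1 and 4 higher after insulin with 1 lower in DKD cells, and 2 for the FoxK1 KD interaction. A fold above 1.5 as well left 0, 1 and 1 higher for insulin in Control, FoxK1 KD and FoxK2 KD, 0 higher in basal FoxK2 KD, 0 lower in basal DKD and 0 higher in insulin-stimulated DKD cells. Fitting only the groups compared gave 0 higher for insulin in Control, 2 for insulin in DKD, and 0 in basal FoxK1 KD and FoxK2 KD cells. Keeping every gene with at least 1 count gave 7 lower for insulin in Control, 2 higher for insulin in DKD and 2 higher in DKD against Control after insulin; among 23784 genes it called 4 results for the 17 members with few reads, namely Mx2 (higher) and Gbp3 (lower) for insulin in Control, as a description, Rtp4 (lower) for insulin in FoxK1 KD and Mx2 (higher) in basal DKD against Control. Removing a GC content and length trend, added after seeing the data, gave 1 higher for insulin in FoxK2 KD and 2 higher in basal FoxK1 KD. Without single replicates, the higher members ranged from 1 to 2 for insulin in Control, 1 to 2 in FoxK1 KD and 1 to 3 in FoxK2 KD, the lower ones in FoxK2 KD from 3 to 8, and the higher ones in basal FoxK2 KD from 0 to 1. Shares of all genes are not given for these alternatives, so nothing is read from the counts about the members as a set. The causes were not tested.

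A fit with the replicate number as a block (replicate block) changed 0 of the 286 calls, with 4 lower members for insulin in Control, as without it; only 8 of 99 same-numbered pairs correlated above 0.1, and 3 libraries correlated best with their own number. Depth limits the 17 members with at most 12 reads in a library, for which most differences could not be resolved.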
